A study of Mus musculus with 9 samples.

Results

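The nuclear genes for the subunits of the respiratory chain and of ATP synthase were measured in brown adipose tissue (BAT) of WT mice at room temperature, of WT mice in the cold and of mice labelled as GCN2 knockouts in the cold. Members were taken by gene symbol: the Nduf genes of complex I (Ndufa, Ndufb, Ndufc, Ndufs and Ndufv), Sdha to Sdhd, all Uqcr genes, the Cox4 to Cox8 genes, all Atp5 genes, Cyc1 and Cycs. A pseudogene name, 1 in all, was left out. The rule gave 83 genes of the 16937 genes listed in any of the 3 deposited tables, and each of the 83 was listed in all of them. Genes that match the rule but are listed in no table could not be counted. By complex they were 37 genes of complex I, 4 of complex II, 9 of complex III, 16 of complex IV, 16 of complex V and 1 gene for cytochrome c. The symbol rule places Ndufa4 and Ndufa4l2 with complex I, although the Ndufa4 protein is known to sit with cytochrome c oxidase, and Atp5s with complex V, although it is known as a coupling factor rather than a subunit of the enzyme.

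The chain passes electrons from NADH (complex I) and from succinate (complex II) through ubiquinone to complex III, over cytochrome c to complex IV and on to oxygen, and complexes I, III and IV pump protons across the inner mitochondrial membrane. ATP synthase, complex V, normally lets those protons back in to make ATP. In brown adipocytes the uncoupling protein Ucp1 lets them back in without ATP synthesis, so that the energy appears as heat, and the tissue is known for a high content of respiratory chain and a low content of ATP synthase.

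RNA was sequenced from 9 libraries, 3 in each group. The cold exposure of WT Cold and GCN2 KO Cold mice was 8 h at 4 °C, while the WT RT group stayed at 23 °C. The knockout is a whole body Gcn2-/- line on the C57Bl/6J background, GCN2 being a kinase that senses amino acid shortage, and its effect cannot be given for BAT cells alone. Groups drew on male and female mice, but the sex behind each library was not given in the sources used here, and knockout mice at room temperature were not analysed here. The letters A, B and C name the libraries of each group, following their deposited codes, and pair nothing across groups. Room temperature libraries carry a different code prefix from the cold ones, so any difference in handling that the prefix marks cannot be told apart from cold.

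Depth was even, from 27058799 to 30768064 reads on the listed genes per library, and 77 of the 83 members had at least 1000 reads in every library. The least covered was Cox4i2, with 60 reads in its lowest library. The targeted gene Eif2ak4, which encodes GCN2, was no lower where the label says GCN2 KO Cold: it had 11.9, 12.7 and 11.8 counts per 1000000 reads (CPM), against 6.5, 8.3 and 8.3 in WT Cold and 11.1, 12.6 and 13.0 in WT RT. Which exons the knockout lacks is not given in the sources used here, and a count over the whole gene says nothing about a deleted part, so the labels were not checked by it, and every direction given below for GCN2 KO Cold rests on the labels. The tissue label was met: Ucp1 had 3592 to 5273 CPM in WT RT, 7969.7 to 8995 CPM in WT Cold and 9494 to 9693 CPM in GCN2 KO Cold.

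In WT Cold, transcripts of the respiratory chain rose modestly and across most complexes. Of the 83 members, 40 were higher than in WT RT at an adjusted p under 0.05 and 1, Ndufa4l2, was lower, against 13.6% of all genes higher and 14.1% lower. Most members are abundant, and of the 4360 genes with a mean normalized count of 1000 or more, 1216 (27.9%) were higher and 621 lower, with a median log2 fold change of 0.11. The median log2 fold change of the members was 0.23, while that of all 16679 genes of the table was 0.00. At an unadjusted p under 0.05 there were 56 higher and 1 lower (20.6% and 20.3% of all genes), and 76 of 83 log2 fold changes were positive and 7 negative (50.2% and 49.8% of all genes). DESeq2 on recovered reads called 40 higher and 1 lower (14.9% and 14.7% of all genes), and edgeR 38 and 1 (13.5% and 14.1%). None of the 83 passed both the adjusted threshold and an absolute log2 fold change over 1, the pair of limits the study used, which 2.99% of all genes passed upward and 5.15% downward. In 65 members the 3 WT Cold libraries all lay above the 3 WT RT libraries on the size-factor scale, as they did for 22.8% of all genes. Fold changes come from limma on log2(normalized count + 1), a scale that understates changes of low genes, and p-values were adjusted over the whole table. The labels call the samples biological replicates, and the p-values measure the spread between these 3 libraries a group.

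The count for WT Cold depended on single libraries, but its direction did not. It was 8 higher and 1 lower without WT Cold B, where 8.25% of all genes were higher, and 9 higher and 1 lower without WT RT B, where 8.96% were. It was 18 higher and 1 lower without WT Cold A (8.71% of all genes higher) and also without WT RT C (10.1%), and 20 higher and 1 lower without WT RT A (9.28%). The median log2 fold change of the members stayed between 0.20 and 0.25 in these 5 fits and was 0.24 without WT Cold C, which left 31 higher and 1 lower (16.2% of all genes higher).

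In libraries labelled GCN2 KO Cold, compared with WT RT, most members were higher. These 2 groups differ in both genotype label and temperature, so genotype and cold cannot be told apart in this comparison, here or below. At an adjusted p under 0.05, 71 members were higher and 2, Ndufa4l2 and Cox6a2, lower, against 16.4% and 17.8% of all genes. Of the 4123 abundant genes of this table, taken as above, 1548 (37.5%) were higher and 614 lower, with a median of 0.17. The median log2 fold change of the members was 0.57, against 0.01 for all 16560 genes. Without adjustment 73 were higher and 2 lower (21.2% and 23.2% of all genes), 78 log2 fold changes were positive (50.8% of all genes) and 5 negative (49.2%), and in 76 the groups lay apart with GCN2 KO Cold above (23.7% of all genes). DESeq2 called 72 higher and 1 lower (16.6% and 17.8% of all genes), and edgeR 70 and 2 (15.5% and 18.7%). By limma Cox6a2 alone passed both limits, and it was lower, while by DESeq2 0 members did. By limma 7.58% of all genes passed both downward and 3.01% upward. The WT RT libraries are shared with the comparison above, so the 2 comparisons are not independent. The library GCN2 KO Cold C stood apart from A and B: members took 6.58% of its reads, against 5.88% and 5.99%. Without it 70 members were higher and 1 lower, with a median of 0.48, and 13.9% of all genes were higher.

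Set directly against WT Cold, libraries labelled GCN2 KO Cold gave no member past an adjusted p of 0.05, 0 higher and 0 lower by limma, against 0.178% and 0.227% of all 16312 genes. The median log2 fold change of the members was 0.33, 79 of 83 were positive (49.5% of all genes were positive and 50.5% negative), and in 74 the groups did not overlap with GCN2 KO Cold above (11.3% of all genes). At an unadjusted p under 0.05, 65 members were higher and 2 lower, against 7.83% and 7.49% of all genes. Of the 3968 abundant genes of this table, 2414 were positive, 974 lay apart above and 748 were higher at an unadjusted p under 0.05, with a median of 0.05. The call depended on the tool: DESeq2 on the recovered reads called 32 higher and 2, Atp5g1 and Cox6a2, lower (1.45% and 1.84% of all genes), while edgeR called 0 members, 0.11% of all genes being higher and 0.159% lower. On CPM limma called 0 members higher (0.0736% of all genes) and 1, Atp5g1, lower (0.472%). By limma no member passed both limits, and by DESeq2 1 did, Cox6a2. By limma 0.0613% of all genes passed them upward and 0.196% downward. The difference between genotypes in the cold is therefore given below by values, and members are named as changed in it only where the tool is named.

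**Figure D1:**
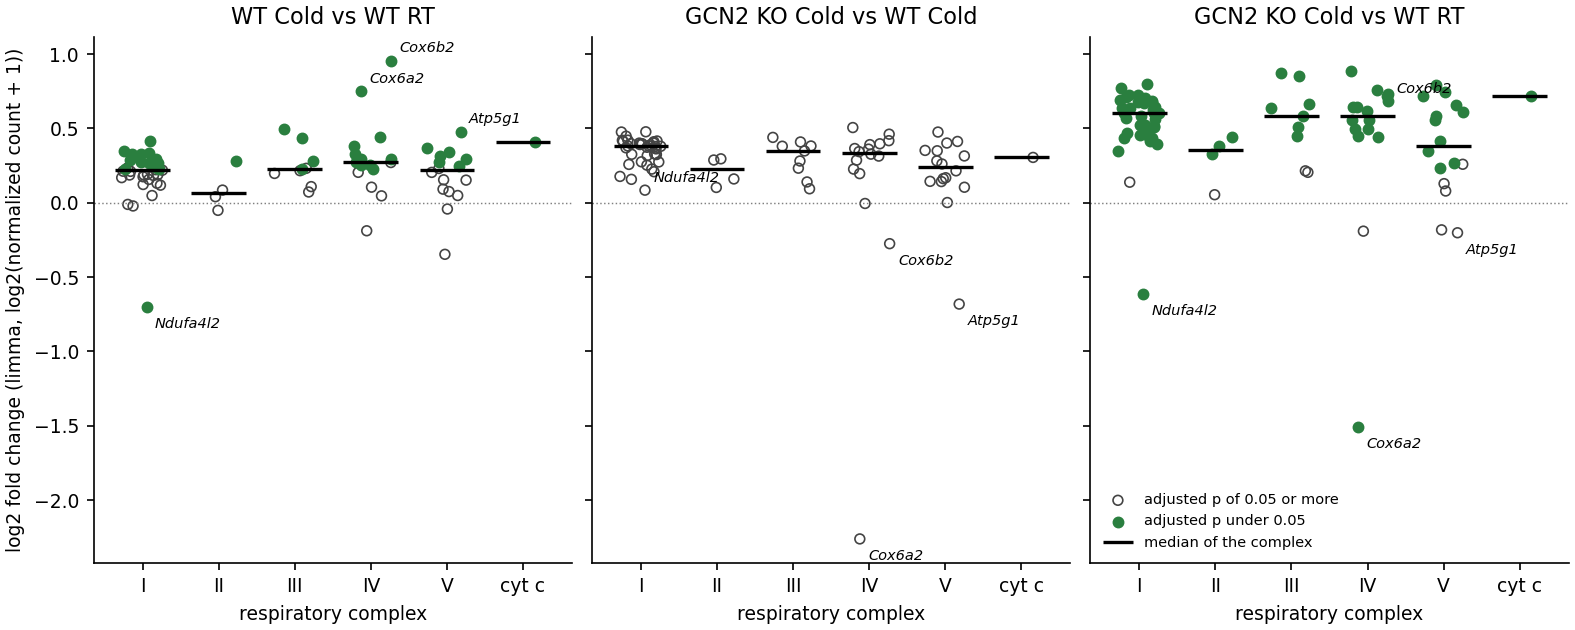
Log2 fold change (limma, y axis) of each of the 83 members by complex (x axis) in the 3 comparisons. Filled points passed an adjusted p of 0.05, open points did not, and bars are medians of a complex. Most points lie above 0 in every panel, with 40, 0 and 71 filled points above it, and Cox6a2 lies lowest in both panels with GCN2 KO Cold.

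Read by library, the chain's share of the transcriptome climbed in steps between groups. Members took 4.94 to 5.23% of the reads in WT RT, 5.36 to 5.58% in WT Cold and 5.88 to 6.58% in GCN2 KO Cold, with no overlap between groups. The mean of log2(CPM + 1) over all members, set to 0 at the WT RT mean, was 0.13 ± 0.04 in WT Cold (SD, n = 3) and 0.28 ± 0.08 in GCN2 KO Cold (SD, n = 3), with an SD of 0.06 in WT RT. Complex I lay at 0.11 ± 0.05 and 0.34 ± 0.10 (SD, n = 3), its lowest WT Cold library falling below its highest WT RT library. For complex III the groups did not overlap, at 0.17 ± 0.03 and 0.35 ± 0.08 (SD, n = 3). Complex IV lay 0.22 ± 0.03 above WT RT in WT Cold, and 0.24 ± 0.04 above it in GCN2 KO Cold (SD, n = 3), its mean in the latter including the low Cox6a2, and the cold groups overlapped. Its summed CPM, in which rare members weigh little, did not overlap, at 11954 to 12768 in WT Cold and 13970 to 16012 in GCN2 KO Cold. Complex V lay at 0.10 ± 0.04 and 0.18 ± 0.07 (SD, n = 3), and WT Cold overlapped both other groups. The summed CPM of complex V did not overlap, at 14047 to 14326 in WT RT, 14640 to 14983 in WT Cold and 15120 to 16580 in GCN2 KO Cold. Complex II, which pumps no protons, lay at 0.00 ± 0.04 and 0.10 ± 0.04 (SD, n = 3), and its WT RT and WT Cold libraries overlapped. The values are descriptions over 4 to 37 genes, and the complexes were not tested against each other.

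**Figure D2:**
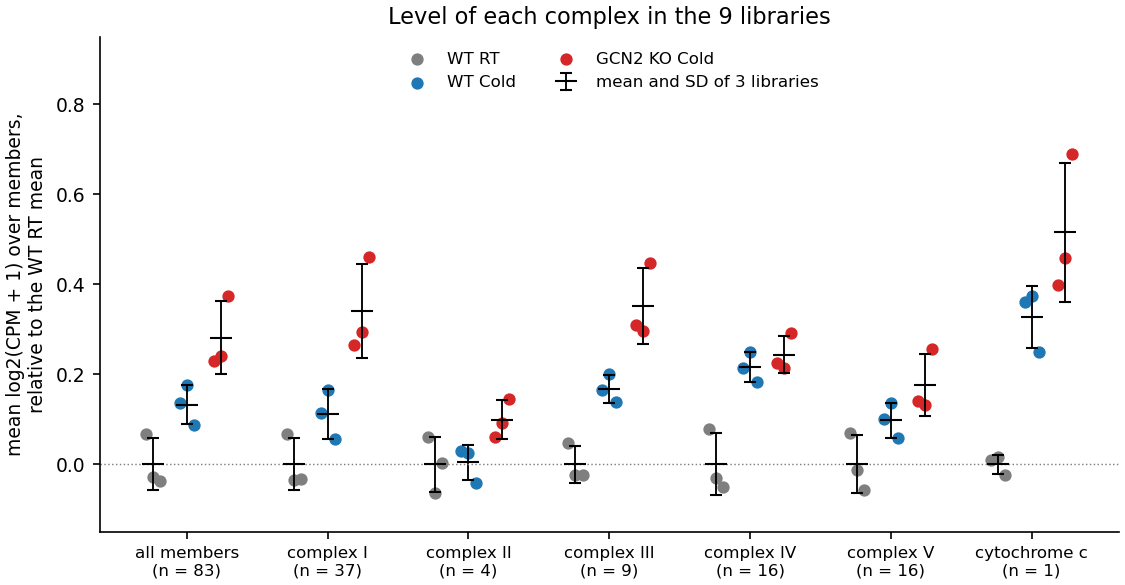
Mean log2(CPM + 1) over the members of each complex in each of the 9 libraries (y axis), relative to the WT RT mean, with the mean and SD of 3 libraries. All-member levels run from -0.04 to 0.07 in WT RT, from 0.09 to 0.18 in WT Cold and from 0.23 to 0.37 in GCN2 KO Cold, and GCN2 KO Cold C is the highest library for every complex.

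CPM values are lower in the cold groups than size-factor values would be. The 13 subunit genes encoded by mitochondrial DNA alone took 177444 to 183521 CPM in WT RT, 195719.7 to 217078 CPM in WT Cold and 223482 to 240431 CPM in GCN2 KO Cold. Scaling to CPM moved the median log2 fold change of all genes by -0.06 in WT Cold vs WT RT, by -0.09 in GCN2 KO Cold vs WT Cold and by -0.16 in GCN2 KO Cold vs WT RT. On CPM, 11 members were higher and 1 lower in WT Cold vs WT RT, where 9.47% of all genes were higher and 17.4% lower, and 59 were higher and 2 lower in GCN2 KO Cold vs WT RT, where 8.94% and 29.2% were. Fold changes named below are on the size-factor scale unless CPM is written beside them, while values by library, and overlap read from them, are on CPM. Counts by role below stand against the shares of all genes given above, 13.6% higher in WT Cold vs WT RT and 16.4% higher in GCN2 KO Cold vs WT RT.

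These 7 promoter stretches are printed because their genes mark the ends of the range: Uqcrh, Uqcr11, Ndufb2 and Cycs were among the largest rises, Sdha passed no test, and Atp5g1 and Atp5g2 encode the same c-ring protein but had unlike fold changes. Each is the 180 bases before the RefSeq start on GRCm38.p6, read 5′ to 3′ on the gene's strand, with capitals for a match to a searched motif: Uqcrh at chr4:116075071-116075250 (minus), Uqcr11 at chr10:80406822-80407001 (minus), Ndufb2 at chr6:39592385-39592564 (plus), Cycs at chr6:50566570-50566749 (minus), Sdha at chr13:74350241-74350420 (minus), Atp5g1 at chr11:96075632-96075811 (minus) and Atp5g2 at chr15:102671048-102671227 (minus).
Uqcrh: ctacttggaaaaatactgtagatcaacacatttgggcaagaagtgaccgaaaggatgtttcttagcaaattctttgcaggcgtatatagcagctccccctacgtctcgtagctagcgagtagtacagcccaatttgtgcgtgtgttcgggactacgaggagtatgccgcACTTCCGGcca
Uqcr11: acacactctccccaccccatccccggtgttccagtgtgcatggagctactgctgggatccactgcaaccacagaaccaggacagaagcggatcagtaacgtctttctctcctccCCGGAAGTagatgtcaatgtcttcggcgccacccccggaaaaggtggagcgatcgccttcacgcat
Ndufb2: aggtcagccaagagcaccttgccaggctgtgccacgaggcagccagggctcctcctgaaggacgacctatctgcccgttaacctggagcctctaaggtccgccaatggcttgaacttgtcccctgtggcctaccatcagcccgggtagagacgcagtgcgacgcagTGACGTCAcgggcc
Cycs: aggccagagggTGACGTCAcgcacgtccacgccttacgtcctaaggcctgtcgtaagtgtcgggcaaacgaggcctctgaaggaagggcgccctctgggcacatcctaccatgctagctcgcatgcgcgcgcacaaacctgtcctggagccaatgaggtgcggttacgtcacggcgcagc
Sdha: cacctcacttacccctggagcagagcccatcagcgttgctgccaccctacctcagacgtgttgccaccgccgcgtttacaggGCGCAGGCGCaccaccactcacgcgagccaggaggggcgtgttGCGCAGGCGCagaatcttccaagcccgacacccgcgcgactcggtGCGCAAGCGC
Atp5g1: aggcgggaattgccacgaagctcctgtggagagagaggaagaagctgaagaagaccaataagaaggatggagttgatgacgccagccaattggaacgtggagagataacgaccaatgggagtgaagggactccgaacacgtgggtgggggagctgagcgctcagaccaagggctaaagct
Atp5g2: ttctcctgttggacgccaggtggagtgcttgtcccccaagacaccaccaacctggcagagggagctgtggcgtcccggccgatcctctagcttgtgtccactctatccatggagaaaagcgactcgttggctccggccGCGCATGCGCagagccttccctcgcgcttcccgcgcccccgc

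The motifs searched, on both strands and over 300 bases from 250 before to 50 after each start, were that of nuclear respiratory factor 1 (NRF1), which is GCGCA and GCGC with any 1 base between them, CCGGAAGT for GABPA, TCAAGGTCA for the estrogen-related receptors, CAAGATGGC for YY1 and TGACGTCA for the cAMP response element. A window was found for 66 of the 83 members. NRF1 letters were in 17 of them, or 25.8%, and in 5.19% of the 27025 genes with a window, and are known from many genes of this chain. GABPA letters were in 5 members (7.58%, all genes 4.31%), YY1 letters in 5 (7.58%, all genes 1.42%), cAMP element letters in 5 (7.58%, all genes 2.03%) and receptor letters in 2 (3.03%, all genes 0.466%). Compared with WT RT, the median log2 fold change in GCN2 KO Cold was 0.52 in the 17 members with NRF1 letters and 0.62 in the other 49. With and without the letters it was 0.72 and 0.60 for GABPA, 0.69 and 0.60 for the cAMP element, 0.65 and 0.59 for YY1 and 0.23 and 0.61 for the receptors, on 2 to 5 members with each. Sdha has 3 NRF1 matches in the printed stretch, and Cycs and Ndufb2 carry the cAMP element letters ahead of their starts. A match is a description of letters and shows no binding.

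Complex I takes electrons from NADH through a flavin and a row of iron-sulfur clusters. Of its 7 nuclear core subunits, which hold those centres and the quinone site, 1 (14.3%, near the 13.6% of all genes) was higher in WT Cold (median log2 fold change 0.21) and 6 were higher in GCN2 KO Cold vs WT RT (median 0.47). The 28 accessory subunits had 14 higher in WT Cold (median 0.23) and all 28 higher in GCN2 KO Cold vs WT RT (median 0.63). Between the cold groups, all 28 accessory subunits lay apart with GCN2 KO Cold above on the size-factor scale (11.3% of all genes), with a median of 0.39 and none past an adjusted p of 0.05 by limma. On CPM some overlapped, Ndufa9 and Ndufa10 for example.

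Ndufs1, a core subunit and carrier of several iron-sulfur clusters, had 622, 586 and 604 CPM in WT RT, 601, 531 and 553 CPM in WT Cold and 554, 608 and 571 CPM in GCN2 KO Cold. The 3 groups overlapped on CPM, although GCN2 KO Cold lay apart above both others on the size-factor scale. Its log2 fold change was -0.02 ± 0.08 (SE) in WT Cold vs WT RT (adjusted p = 0.859, limma) and 0.14 ± 0.08 in GCN2 KO Cold vs WT RT (adjusted p = 0.217, limma), negative on CPM. Ndufv1, which binds NADH and the flavin, went from 724 to 806 CPM in WT RT to 833 to 882 CPM in WT Cold and 876 to 958 CPM in GCN2 KO Cold. It moved by 0.22 ± 0.08 on the log2 scale in WT Cold (adjusted p = 0.082, limma) and 0.43 ± 0.09 in GCN2 KO Cold vs WT RT (adjusted p = 0.00768, limma). Ndufs8, which carries iron-sulfur clusters next to the quinone site, was the core subunit that rose in both, by 0.27 ± 0.07 (adjusted p = 0.0234, limma) and 0.53 ± 0.08 (adjusted p = 0.00193, limma).
Ndufs7, which holds the last iron-sulfur cluster before ubiquinone, had a log2 fold change of 0.21 in WT Cold (adjusted p = 0.139, limma) and rose by 0.47 in GCN2 KO Cold vs WT RT (adjusted p = 0.0104, limma).

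Ndufb2, an accessory subunit of the membrane arm, rose most within complex I in both comparisons with WT RT. It had 133, 119.8 and 124 CPM in WT RT, 160.1, 168 and 147 CPM in WT Cold and 175, 177 and 221 CPM in GCN2 KO Cold, with no overlap. The rise was 0.42 ± 0.08 in WT Cold (adjusted p = 0.0072, limma) and 0.80 ± 0.11 in GCN2 KO Cold vs WT RT (adjusted p = 0.00111, limma). Ndufa1, a small subunit where the arms of the complex meet, had the largest fold change of complex I in GCN2 KO Cold vs WT Cold, 0.48 ± 0.13 (adjusted p = 0.167, limma). Its libraries read 285, 313 and 362 CPM in WT Cold and 372, 397 and 463 CPM in GCN2 KO Cold.

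Ndufa4l2, a paralog of Ndufa4 that is known as a target of hypoxia signalling, was the one member that fell in WT Cold. It had 9.52, 8.35 and 9.91 CPM in WT RT, 4.94, 5.49 and 5.63 CPM in WT Cold and 4.48, 6.12 and 5.21 CPM in GCN2 KO Cold, so that both cold groups lay below every room temperature library and overlapped each other. The log2 values against WT RT were -0.70 ± 0.15 in WT Cold (adjusted p = 0.0121, limma) and -0.61 ± 0.17 in GCN2 KO Cold vs WT RT (adjusted p = 0.0242, limma). Leaving out any of the 6 libraries kept the first call, with adjusted p from 0.0105 to 0.0464, while the second was lost without GCN2 KO Cold A or C or without WT RT A or C, with adjusted p up to 0.0895. Ndufa4 itself rose, from 806 to 898 CPM in WT RT to 931 to 991 CPM in WT Cold and 1037 to 1313 CPM in GCN2 KO Cold.

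Complex II, succinate dehydrogenase, is also an enzyme of the citric acid cycle. Sdha, its flavin subunit, had 2314 to 2629.7 CPM in WT RT, 2122 to 2389 CPM in WT Cold and 2113 to 2389.9 CPM in GCN2 KO Cold, and the groups overlapped. Against WT RT it had a log2 fold change of -0.05 ± 0.11 in WT Cold (adjusted p = 0.75, limma) and of 0.05 ± 0.11 in GCN2 KO Cold (adjusted p = 0.732, limma), the latter negative on CPM. Sdhb, the iron-sulfur subunit, rose in both, by 0.28 ± 0.08 (adjusted p = 0.0306, limma) and 0.44 ± 0.08 (adjusted p = 0.00487, limma). The membrane anchors Sdhc and Sdhd had 0.04 and 0.09 in WT Cold (adjusted p = 0.73 and 0.396, limma) and rose by 0.33 and 0.38 in GCN2 KO Cold vs WT RT (adjusted p = 0.011 and 0.00684, limma).

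Complex III hands electrons to cytochrome c. Among the 5 small subunits the median log2 fold change was 0.28 in WT Cold with 3 higher, and of 0.67 in GCN2 KO Cold vs WT RT with 5 higher. For the 4 core and redox subunits the medians were 0.16 with 1 higher and 0.33 with 2 higher. Uqcrh, the hinge subunit that helps dock cytochrome c, had the largest rise of the complex in both. It had 514, 471 and 460.2 CPM in WT RT, 628, 655 and 634 CPM in WT Cold and 723, 696 and 896 CPM in GCN2 KO Cold, with no overlap. The rise was 1.41-fold in WT Cold (log2 0.49 ± 0.07, adjusted p = 0.00273, limma) and 1.84-fold in GCN2 KO Cold vs WT RT (log2 0.88 ± 0.11, adjusted p = 0.000883, limma), and no single library left out ended either call.

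Uqcr11, another small subunit, followed closely at 391 to 427 CPM, 500.2 to 537 CPM and 606 to 671 CPM in the 3 groups, with log2 fold changes of 0.44 ± 0.08 in WT Cold (adjusted p = 0.00515, limma) and 0.85 ± 0.08 in GCN2 KO Cold vs WT RT (adjusted p = 0.000286, limma). Uqcr10 had the largest fold change of the complex in GCN2 KO Cold vs WT Cold, 0.44 ± 0.08 (adjusted p = 0.0932, limma). Uqcrc1 and Uqcrc2, the large core subunits that hold no redox centre, did not pass an adjusted p of 0.05 by limma. Without adjustment both had p under 0.05 in GCN2 KO Cold vs WT RT by limma. Uqcrc1 had 1007 to 1071 CPM in WT RT, 927 to 1086 CPM in WT Cold and 1013 to 1065 CPM in GCN2 KO Cold. All groups overlapped on CPM, while on the size-factor scale GCN2 KO Cold lay above both others, and its log2 fold change of 0.07 in WT Cold (adjusted p = 0.572, limma) was negative on CPM. Uqcrc2 had a log2 fold change of 0.11 in WT Cold (adjusted p = 0.293, limma) and of 0.21 in GCN2 KO Cold vs WT RT (adjusted p = 0.0841, limma).
The redox subunits lay between these. Uqcrfs1, the Rieske iron-sulfur protein, was tightly replicated, at 838 to 842 CPM in WT RT, 920.5 to 934 CPM in WT Cold and 1003 to 1102 CPM in GCN2 KO Cold, and rose by 0.23 ± 0.07 (adjusted p = 0.0463, limma) and 0.51 ± 0.08 (adjusted p = 0.0024, limma). Cyc1, cytochrome c1, had 0.22 ± 0.08 in WT Cold (adjusted p = 0.087, limma) and rose by 0.45 ± 0.08 in GCN2 KO Cold vs WT RT (adjusted p = 0.00321, limma).

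Cycs encodes cytochrome c, the mobile carrier between complexes III and IV. It had 1048, 1053 and 1024 CPM in WT RT, 1337, 1349 and 1238 CPM in WT Cold and 1372, 1432 and 1681 CPM in GCN2 KO Cold, and the 3 groups did not overlap. The rise of 0.41 ± 0.07 in WT Cold (adjusted p = 0.00538, limma) and of 0.72 ± 0.10 in GCN2 KO Cold vs WT RT (adjusted p = 0.00139, limma) held without any single library.

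Complex IV, cytochrome c oxidase, reduces oxygen, and several of its nuclear subunits come as paralog pairs with a widely expressed and a tissue-restricted form. The 5 subunits taken here as single copy, Cox5a, Cox5b, Cox6c, Cox7b and Cox7c, had 3 higher in WT Cold (median 0.28) and 5 higher in GCN2 KO Cold vs WT RT (median 0.64). Cox5a, a matrix-side subunit, had 0.21 ± 0.07 in WT Cold (adjusted p = 0.0541, limma) and rose by 0.49 ± 0.09 in GCN2 KO Cold vs WT RT (adjusted p = 0.00514, limma). The 11 paralogs had 8 higher in WT Cold, and 9 higher and 1 lower in GCN2 KO Cold vs WT RT.

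Cox8b, the form of heart, muscle and brown fat, stood first of all 83 members per length of transcript in WT RT, at 3444 CPM per kb, ahead of Atp5b at 2911 and Cox6a1 at 2778. In CPM it had 1338, 1174 and 1208 in WT RT, 1388, 1679.9 and 1503 in WT Cold, then 1965, 2032 and 1972 in GCN2 KO Cold. The groups did not overlap, and GCN2 KO Cold varied least. The rise was 0.38 ± 0.10 in WT Cold (adjusted p = 0.0302, limma) and 0.89 ± 0.09 in GCN2 KO Cold vs WT RT (adjusted p = 0.000409, limma), the latter the largest of all members. Its fold change in GCN2 KO Cold vs WT Cold was also the largest of all, 0.51 ± 0.10, at an adjusted p of 0.0955 by limma and of 0.00127 by DESeq2. The call in WT Cold was lost without WT Cold B (adjusted p = 0.106) and without any of the WT RT libraries (up to 0.0937). Cox8a, the widely expressed form, had 0.11 ± 0.08 in WT Cold (adjusted p = 0.35, limma) and rose by 0.50 ± 0.08 in GCN2 KO Cold vs WT RT (adjusted p = 0.00268, limma).

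Cox7a1, the second such form, went from 571 to 609 CPM in WT RT to 725 to 794 CPM in WT Cold and 803 to 981 CPM in GCN2 KO Cold without overlap. It rose by 0.44 ± 0.08 (adjusted p = 0.00517, limma) and 0.76 ± 0.10 (adjusted p = 0.00116, limma), and its sister Cox7a2 by 0.23 ± 0.07 (adjusted p = 0.0404, limma) and 0.56 ± 0.11 (adjusted p = 0.0051, limma). Cox7a2l, a further paralog of Cox7a2, rose by 0.25 ± 0.07 (adjusted p = 0.0366, limma) and 0.45 ± 0.08 (adjusted p = 0.00408, limma).
Cox4i1, the main form of subunit 4, rose by 0.33 ± 0.09 (adjusted p = 0.0293, limma) and 0.55 ± 0.11 (adjusted p = 0.00531, limma). Cox4i2, its counterpart of lung and of cells low in oxygen, had 2.63 to 3.15 CPM in WT RT, 2.18 to 2.67 CPM in WT Cold and 2.09 to 2.24 CPM in GCN2 KO Cold, the lowest of all members per length in WT RT. GCN2 KO Cold lay below every WT RT library, and its log2 fold change of -0.19 passed no test (adjusted p = 0.467, limma).

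Cox6b2 is a form of subunit 6b best known from testis. It was rare, at 3.28, 3.45 and 4.2 CPM in WT RT, but reached 7.77, 6.67 and 5.70 CPM in WT Cold and 4.99, 5.35 and 4.88 CPM in GCN2 KO Cold. Both cold groups lay above room temperature, and GCN2 KO Cold lay below WT Cold. The rise of 0.96 ± 0.19 in WT Cold, or 1.94-fold, was the largest of all members (adjusted p = 0.00836, limma), and leaving out any of the 6 libraries kept it, with adjusted p from 0.00634 to 0.0353. In GCN2 KO Cold vs WT RT it rose by 0.68 ± 0.18 (adjusted p = 0.0203, limma), a call lost without GCN2 KO Cold B (adjusted p = 0.0593), WT RT A (0.0689) or WT RT B (0.066). In GCN2 KO Cold vs WT Cold its log2 fold change was -0.27 ± 0.15 (adjusted p = 0.454, limma).

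Cox6a2, the heart and skeletal muscle form of subunit 6a, had the lowest fold change of the chain in both comparisons of libraries labelled GCN2 KO Cold. It had 30.1, 24.1 and 20.7 CPM in WT RT, 46.0, 44.8 and 29.1 CPM in WT Cold and 12.8, 10.9 and 3.03 CPM in GCN2 KO Cold. All 3 GCN2 KO Cold libraries lay below the other 6, while WT RT and WT Cold overlapped on CPM and lay apart on the size-factor scale. The log2 fold change was 0.75 ± 0.19 in WT Cold vs WT RT (adjusted p = 0.0212, limma), -2.26 ± 0.50 in GCN2 KO Cold vs WT Cold (adjusted p = 0.118 by limma and 0.0258 by DESeq2) and -1.51 ± 0.47 in GCN2 KO Cold vs WT RT (adjusted p = 0.0384 by limma and 0.076 by DESeq2). Leaving out WT RT A, B or C raised the last adjusted p to 0.115, 0.0834 and 0.0758, and without GCN2 KO Cold C the fold change was -0.86 (adjusted p = 0.00776). Against WT Cold it was -1.62 without that library (adjusted p = 0.0564). The call in WT Cold was lost without WT Cold A or B or without WT RT B or C (adjusted p up to 0.078).

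Markers of skeletal muscle moved with Cox6a2. The 20 markers summed to 3122 to 3771 CPM in WT RT, 2970.2 to 4994 CPM in WT Cold and 420.01 to 1720.1 CPM in GCN2 KO Cold, and none was at 0 in any library. All 20 had a negative log2 fold change in GCN2 KO Cold vs WT Cold, with 2 called lower (0.227% of all genes), and in GCN2 KO Cold vs WT RT the median was -1.69 with 18 called lower (17.8% of all genes). In WT Cold vs WT RT the median was 0.28 with 5 called higher. Within each group the library with the most Cox6a2 also had the highest sum, and the library with the least had the lowest. The part of muscle RNA in the Cox6a2 values was not tested. In bulk tissue, fewer cells of a type and less RNA per cell cannot be told apart. Cox6a1, the widely expressed form and the third highest member per length, read 1432 to 1672 CPM in WT Cold, overlapping WT RT at 1507 to 1738 CPM, and 1799.7 to 1994 CPM in GCN2 KO Cold, a rise over WT RT of 0.45 ± 0.10 (adjusted p = 0.0098, limma).

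**Figure D3:**
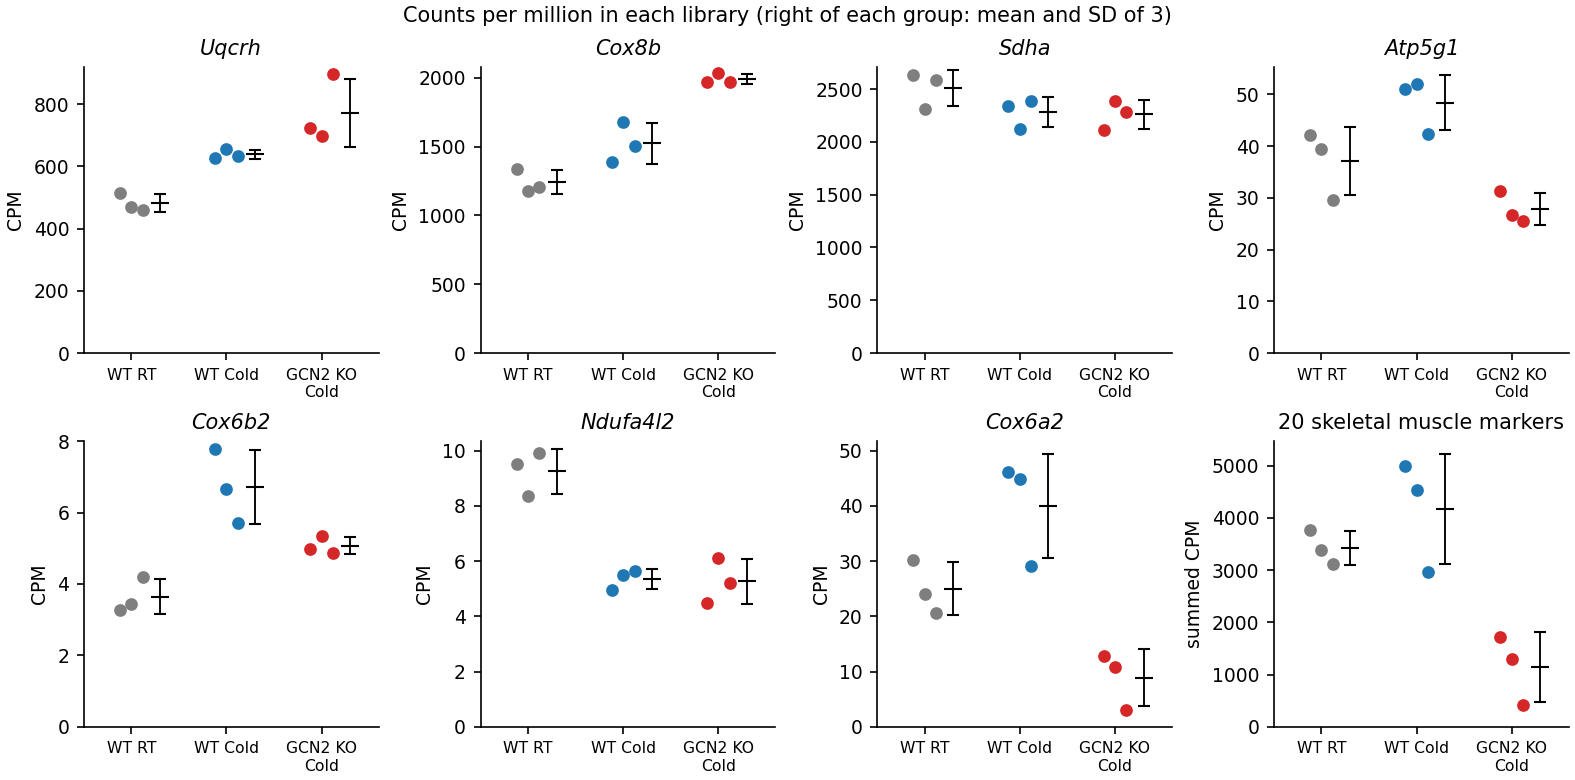
CPM (y axis, from 0) of 7 members in each of the 9 libraries by group, and the summed CPM of 20 skeletal muscle markers, with the mean and SD of 3 libraries to the right. Uqcrh and Cox8b step up without overlap, Sdha overlaps, Atp5g1 and Cox6a2 are lowest in GCN2 KO Cold, Ndufa4l2 is lower in both cold groups, and the muscle markers fall from 2970.2 to 4994 CPM in WT Cold to 420.01 to 1720.1 CPM in GCN2 KO Cold.

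In complex V, the 3 small membrane subunits Atp5j2, Atp5k and Atp5l, which sit beside the ring where ATP synthases pair up, all rose in WT Cold (median 0.31) and in GCN2 KO Cold vs WT RT (median 0.75). Atp5k had the largest rise of complex V in GCN2 KO Cold vs WT RT: it had 465, 431 and 401 CPM in WT RT, 469.7, 553 and 498 CPM in WT Cold and 585, 629 and 742 CPM in GCN2 KO Cold. The log2 differences were 0.31 ± 0.09 in WT Cold (adjusted p = 0.0329, limma), 0.48 ± 0.12 in GCN2 KO Cold vs WT Cold (adjusted p = 0.142 by limma and 0.0203 by DESeq2) and 0.79 ± 0.10 in GCN2 KO Cold vs WT RT (adjusted p = 0.00104, limma). The 4 peripheral stalk subunits had 2 higher in WT Cold (median 0.21) and 4 higher in GCN2 KO Cold vs WT RT (median 0.49).

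Of the 5 subunits of the catalytic head and central stalk, 1 rose in WT Cold (median 0.20) and 3 in GCN2 KO Cold vs WT RT (median 0.35). Atp5b, the catalytic beta subunit and the member with the most reads, had 5368 to 5832 CPM in WT RT, 5810.0 to 5917 CPM in WT Cold and 5641 to 5962 CPM in GCN2 KO Cold. The groups overlapped on CPM but not on the size-factor scale. By limma neither WT Cold (log2 0.15 ± 0.10, adjusted p = 0.312, limma) nor GCN2 KO Cold vs WT RT (0.26 ± 0.12, adjusted p = 0.137, limma) passed the test, and by DESeq2 the latter did (adjusted p = 0.0291). Atp5a1, the alpha subunit, had -0.04 ± 0.09 (adjusted p = 0.753, limma) and 0.13 ± 0.10 (adjusted p = 0.36, limma), the latter negative on CPM. The small stalk subunit Atp5d rose in both, by 0.30 ± 0.07 (adjusted p = 0.0224, limma) and 0.61 ± 0.08 (adjusted p = 0.00116, limma). Atpif1, the inhibitor of the head, falls outside the naming rule and had 0.10 and 0.02 (adjusted p = 0.621 and 0.937, limma). Atp5s had -0.35 ± 0.15 in WT Cold (adjusted p = 0.125, limma) and -0.18 ± 0.18 in GCN2 KO Cold vs WT RT (adjusted p = 0.473, limma).

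The c-ring, the rotor that protons turn, is encoded by 3 genes with the same mature protein, whose median log2 fold change was 0.09 for WT Cold vs WT RT and 0.08 for GCN2 KO Cold vs WT RT. Atp5g1, long known as the form whose supply limits ATP synthase in brown fat, had 42.1, 39.5 and 29.6 CPM in WT RT, 51.0, 52.0 and 42.2 CPM in WT Cold and 31.3, 26.7 and 25.4 CPM in GCN2 KO Cold. WT Cold lay above every other library, and WT RT and GCN2 KO Cold overlapped. The rise in WT Cold was 0.48 ± 0.13 (adjusted p = 0.0272, limma), the largest of complex V there, but it was lost without WT Cold A or B or without WT RT B or C (adjusted p up to 0.0962). In GCN2 KO Cold vs WT Cold the log2 fold change was -0.68 ± 0.11 (adjusted p = 0.0635 by limma, and called lower by DESeq2 and by limma on CPM), against a median of 0.33 over all members, and in GCN2 KO Cold vs WT RT it was -0.20 ± 0.13 (adjusted p = 0.263, limma). Atp5g2 stayed at 133 to 144 CPM in all 9 libraries, and Atp5g3 at 241 to 281 CPM. Atp5g2 had 0.09 ± 0.07 in WT Cold (adjusted p = 0.385, limma) and 0.24 ± 0.07 in GCN2 KO Cold vs WT RT (adjusted p = 0.0364, limma), the latter turning to -0.06 with the length trend removed. Atp5g3 had 0.08 in both (adjusted p = 0.404 and 0.383, limma), negative on CPM.

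Ratios between paralogs within a library do not depend on how libraries were scaled. They were compared in 9 pairs and 3 comparisons with a two-sided exact permutation test over libraries, which with 3 against 3 cannot go below p = 0.1, and over 27 tests the adjusted p could not pass 0.05. In WT Cold vs WT RT the log2 ratio Cox7a1/Cox7a2 went from 0.56 ± 0.03 to 0.77 ± 0.06 (SD, n = 3, exact permutation p = 0.1, adjusted 0.159) and Cox8b/Cox8a from 0.41 ± 0.04 to 0.69 ± 0.10 (SD, n = 3, exact permutation p = 0.1, adjusted 0.159), and in both pairs all WT Cold libraries lay above all WT RT libraries. Both ratios remained above WT RT in GCN2 KO Cold, at 0.76 ± 0.04 and 0.80 ± 0.09 (SD, n = 3).
Cox4i2/Cox4i1 was lower by a log2 difference of -0.51 in WT Cold and of -0.74 in GCN2 KO Cold vs WT RT, with no overlap (exact permutation p = 0.1, adjusted 0.159, in each).
Ndufa4l2/Ndufa4 fell by 0.97 in WT Cold and by 1.24 in GCN2 KO Cold vs WT RT, with no overlap (exact permutation p = 0.1, adjusted 0.159, in each). The Atp5g1/Atp5g2 ratio rose by 0.39 from WT RT to WT Cold without overlap, and by 0.22 to 0.47 with each library left out in turn. From WT Cold to GCN2 KO Cold it fell by 0.82, from -1.53 ± 0.11 to -2.36 ± 0.16 (SD, n = 3, exact permutation p = 0.1, adjusted 0.159). The widest change was in Cox6a2/Cox6a1, from -5.30 ± 0.48 in WT Cold to -7.96 ± 1.21 in GCN2 KO Cold (SD, n = 3, exact permutation p = 0.1, adjusted 0.159), with GCN2 KO Cold C farthest down. The difference between the cold groups was -2.66 with that library and -1.96 without it. Cox7a2l/Cox7a2 showed no such shift in WT Cold, at 0.02 (exact permutation p = 1.0).

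**Figure D4:**
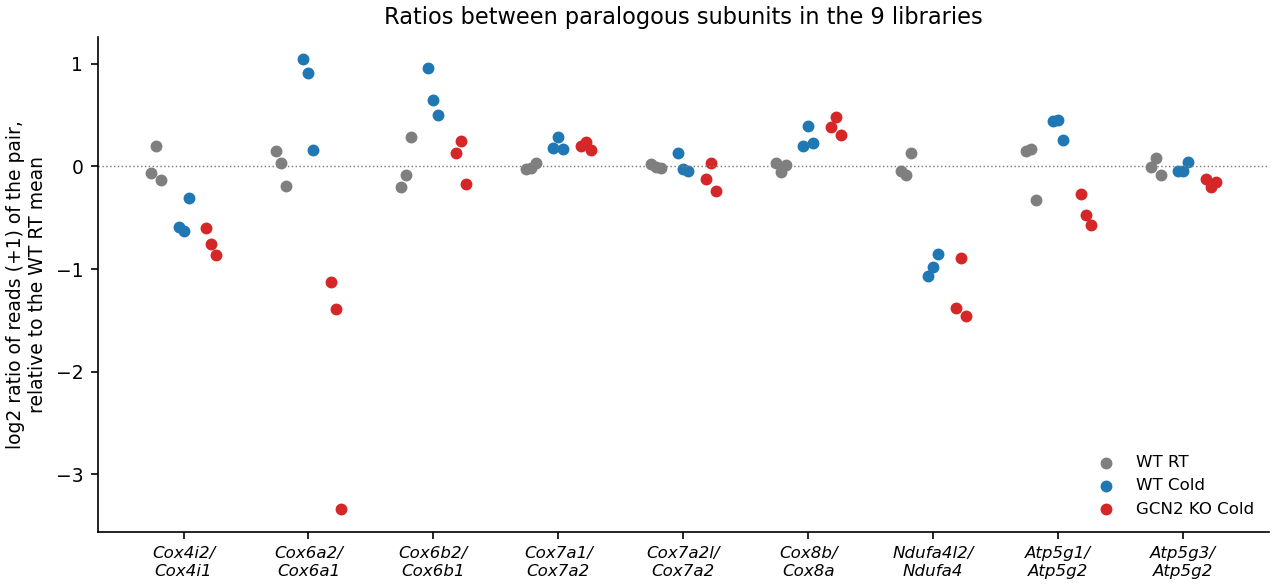
Log2 ratio of reads between paralogous subunits (y axis, relative to the WT RT mean) for 9 pairs in each of the 9 libraries. Cox7a1/Cox7a2 and Cox8b/Cox8a lie above WT RT in both cold groups, Ndufa4l2/Ndufa4 lies below it in both, and Cox6a2/Cox6a1 and Atp5g1/Atp5g2 lie below WT RT or overlap its lowest library in GCN2 KO Cold and above its mean in WT Cold.

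The rise was larger in members with short transcripts. Length was taken from GENCODE M21 as the principal coding transcript, and it ranged from 360 to 4715 nt over the members, with a median of 861. From WT RT to GCN2 KO Cold, the 20 members under 600 nt had a median log2 fold change of 0.68, the 29 from 600 to 1000 nt 0.57, the 26 from 1000 to 2000 nt 0.45 and the 8 longer ones 0.23. In WT Cold vs WT RT the same classes had 0.28, 0.24, 0.21 and 0.08, and in GCN2 KO Cold vs WT Cold 0.39, 0.34, 0.27 and 0.22. Spearman's rho between length and fold change over the 83 members, which share their libraries, was -0.35 in WT Cold vs WT RT, -0.47 in GCN2 KO Cold vs WT Cold and -0.53 in GCN2 KO Cold vs WT RT.

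Other genes showed a like order in these classes. Among the rest with 1000 or more normalized counts on average, the 70 under 600 nt had a median of 0.52 in GCN2 KO Cold vs WT RT, and the next classes 0.41, 0.25 and 0.09. In WT Cold vs WT RT these were 0.29, 0.17, 0.11 and 0.09, and in GCN2 KO Cold vs WT Cold 0.26, 0.24, 0.14 and 0.00. When the trend with length was removed from each library, a step added after the data were seen, 24 members were higher and 1 lower in WT Cold vs WT RT (median 0.17, 13.7% of all genes higher and 14.2% lower), and 58 were higher and 3, Atp5g3, Cox6a2 and Ndufa4l2, lower in GCN2 KO Cold vs WT RT (median 0.30, 15.8% of all genes higher and 17.6% lower). Between the cold groups 0 were called by limma (0.0676% of all genes higher and 0.111% lower) and the median was 0.15, against the 0.33 before. The part of length in the rise was not tested beyond this. Of the 8 members in the longest class, 6 also have an annotated coding transcript under 1000 nt, among them Ndufb2 (4371 and 455 nt), Atp5g1 (4715 and 596 nt), Sdha (2900.0 and 722 nt) and Ndufs1 (2661 and 332 nt). Whether these shorter transcripts hold the whole coding sequence was not checked. They therefore do not show by themselves that a member belongs in a shorter class.

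**Figure D5:**
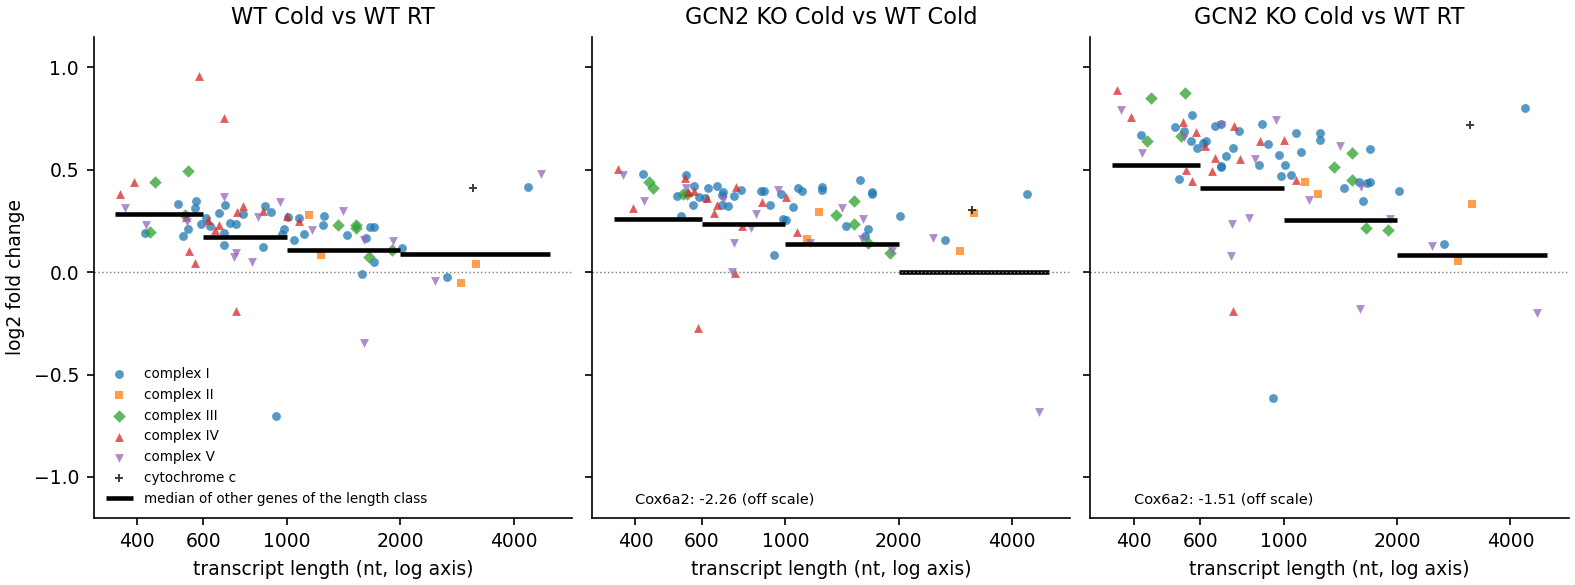
Log2 fold change (y axis) against transcript length (x axis, log scale) for the members, by complex, in the 3 comparisons, with bars for the median of the rest of the genes averaging 1000 or more normalized counts in each length class. Short members lie highest: under 600 nt their median is 0.28, 0.39 and 0.68 from left to right, and the bars step down with length in the same way.

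The genes around the chain were read from lists of known function. Of 8 measured genes listed as subunits outside the naming rule, 2 rose and 2 fell in WT Cold (median 0.14), beside 13.6% and 14.1% of all genes. In GCN2 KO Cold vs WT RT 5 of them were higher and 1 lower (median 0.41), beside 16.4% and 17.8%. Of the 13 subunits encoded by mitochondrial DNA, 7 rose in WT Cold (median 0.50) and 11 in GCN2 KO Cold vs WT RT (median 0.67). Between the cold groups 13 of 13 were positive (median 0.23) and none was called by limma. Several of these genes have near-identical copies in the nuclear genome, so that their share of uniquely mapped reads is uncertain, and the same holds for members with processed pseudogenes. Assembly factors are needed to build the complexes. Of 16 measured factors of complex I, 3 rose (18.8%) and 3 fell (median 0.12), and of 23 of complex IV, 3 rose (13.0%, median 0.05) in WT Cold, beside 13.6% of all genes higher and 14.1% lower. The shorter lists for complexes II, III and V had 1 of 4, 3 of 6 and 1 of 5 higher (medians 0.13, 0.14 and 0.08). Compared with WT RT, the same lists in GCN2 KO Cold had 9 higher and 1 lower (median 0.29) and 13 higher (median 0.42), and the shorter lists 2, 3 and 4 higher (medians 0.36, 0.30 and 0.43). A list of 17 mitochondrial genes outside the chain had 6 higher and 1 lower in WT Cold (median 0.22) and 11 higher in GCN2 KO Cold vs WT RT (median 0.39). Ndufaf4, a chaperone of early complex I assembly, rose by 0.58 ± 0.10 in WT Cold (adjusted p = 0.0047, limma), and Ndufaf3, its partner, fell by 0.38 (SE 0.11, adjusted p = 0.0319, limma). Higd1a, which is known to bind complex IV, was the one listed factor called in GCN2 KO Cold vs WT Cold, at 0.61 ± 0.07 (adjusted p = 0.0295, limma).

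Among 17 regulators of respiratory genes, 3 rose (17.6%, all genes 13.6%) and 1 fell in WT Cold (all genes 14.1%). In GCN2 KO Cold vs WT RT 5 were higher and 2 lower (median 0.09), and between the cold groups 12 of 17 were negative (median -0.11) and none was called by limma. Ppargc1a, the coactivator known to drive mitochondrial biogenesis in cold brown fat, had 35.5, 43.6 and 57.5 CPM in WT RT, 398, 214 and 240 CPM in WT Cold and 226, 158 and 512 CPM in GCN2 KO Cold. In WT Cold this gave a log2 fold change of 2.70 ± 0.26 (adjusted p = 0.00054, limma) and 2.77 ± 0.39 in GCN2 KO Cold vs WT RT (adjusted p = 0.0014, limma), above that of every member, and 0.06 ± 0.42 between the cold groups (adjusted p = 0.962, limma). Its receptor partners Esrra and Esrrb rose by 0.69 ± 0.12 and 2.63 ± 0.34 in WT Cold (adjusted p = 0.00546 and 0.00177, limma), and Ppara fell by 0.51 (SE 0.08, adjusted p = 0.00445, limma). Nrf1 and Gabpa, whose motifs were searched above, had 0.29 and 0.17 in WT Cold (adjusted p = 0.0732 and 0.497, limma).

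Markers of several cell types also differed between the groups, some lists going both ways. The 5 red blood cell markers summed to 260 to 345 CPM in WT RT, 572 to 2279 CPM in WT Cold and 1084 to 2081 CPM in GCN2 KO Cold, and all 5 were called higher in both cold groups (median 1.64 and 2.31). The 11 leukocyte markers summed to 377 to 600 CPM, 220 to 301 CPM and 158 to 257 CPM, with 5 called lower in WT Cold (median -0.95, 14.1% of all genes lower) and 6 in GCN2 KO Cold vs WT RT (median -1.21, 17.8% of all genes lower). The 14 brown adipocyte markers, which include Cox8b, had 6 higher and 2 lower in WT Cold (median 0.23) and 8 higher and 1 lower in GCN2 KO Cold vs WT RT (median 0.54). The 7 white adipocyte markers went both ways, with 2 called higher and 2 lower in WT Cold and 1 higher and 2 lower in GCN2 KO Cold vs WT RT (medians -0.14 and -0.13), and summed to 280.4 to 301 CPM in WT RT, 496 to 627 CPM in WT Cold and 472 to 552 CPM in GCN2 KO Cold. The 6 endothelial markers had 2 higher in WT Cold and 1 higher and 1 lower in GCN2 KO Cold vs WT RT (medians 0.27 and 0.23). No marker of these lists was at 0 in any library. The part of such shifts in the rise of the chain was not tested.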

How the data were processed

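RNA-seq of mouse brown adipose tissue was analysed from 9 libraries in 3 groups. Per the paper and the submitters' processing notes, the authors trimmed reads (Trimmomatic 0.36), aligned them with STAR (2.5.2b) to GRCm39, counted unique exonic reads with featureCounts (Subread 1.5.2) and compared groups with DESeq2. In each deposited table the value of a gene in a library is a signal, namely its reads over the size factor of that library. Log2 fold changes and p-values from the authors' own tests were deposited too and not used. Whole reads were recovered for 100% of values (tolerance 0.001). Columns name library codes and were tied to groups, not to mice, and 0 columns belong to other samples. The title of 1 sample put in GCN2 KO Cold names both genotypes and no temperature, and its group rests on its genotype and temperature tags.

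Groups were compared within each table by limma 3.58.1 (R 4.3.3, mean-variance trend) on log2(value + 1) with Benjamini-Hochberg adjustment over the table. The limit for a call was an adjusted p of 0.05. DESeq2 1.42.0 and edgeR 4.0.16 were run on recovered reads, since a count test needs whole reads. Scripts were tested on simulated data. CPM are recovered reads per 1000000 on listed genes. Transcript lengths are from GENCODE M21 and promoters from RefSeq, both GRCm38, with no coordinates carried over from GRCm39. Named genes were, per complex and comparison, the largest rise and the largest fall (or smallest rise), the paralog pairs, redox and catalytic subunits, any member past both limits, the targeted gene and the leading companion genes. Uqcr11, Sdhc, Atp5d and genes that complete a subunit group were added after values were seen, and 1 gene of the rule is not reported here. The members and lists were chosen with earlier results of these data known. Alternatives covered scaling, pseudocount, filter, adjustment, tool, trend, all libraries in 1 fit, each library left out and transcript length.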

Additional observations from a re-analysis of the deposited data

How the results depend on the processing

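Of the alternatives tried, 260 values kept their direction (210 of them ratios, judged by sign alone), 39 moved in size and 7 changed sign. The number of subunits called in WT Cold vs WT RT, 41 in all, was 12 on CPM, 10 on CPM with all 9 libraries in 1 fit, 10 without the mean-variance trend and 25 with the length trend removed, and 9 to 32 without each library in turn. Bonferroni adjustment left 0, as did an absolute log2 fold change over 1. In GCN2 KO Cold vs WT Cold it was 34 by DESeq2, 1 on CPM, 3 on CPM with all 9 libraries in 1 fit and 0 without each library in turn. In GCN2 KO Cold vs WT RT, 73 in all, it was 0 under Bonferroni, 1 with the fold limit and 68 to 71 without each library. For the fit of all 9 libraries and the fit without the mean-variance trend, the share of all genes called was not counted. Those counts therefore cannot be set against a background.

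With TMM scaling, the WT Cold minus WT RT levels were 0.19 over all members, and 0.17, 0.0655, 0.23, 0.27 and 0.16 for complexes I to V. GCN2 KO Cold minus WT Cold gave 0.27, and 0.35, 0.22, 0.31, 0.15 and 0.20. GCN2 KO Cold minus WT RT gave 0.46, and 0.52, 0.28, 0.54, 0.42 and 0.36. Medians over members in place of means gave 0.22 (GCN2 KO Cold minus WT Cold) and 0.36 (minus WT RT) for all, 0.18 and 0.38 for complex IV, and, for complex II, -0.00899 in WT Cold minus WT RT and 0.16 in GCN2 KO Cold minus WT Cold. Without each library, log2 ratios that lay near 0 crossed it: Cox6b2/Cox6b1 in GCN2 KO Cold vs WT RT from -0.0321 to 0.21, Cox7a1/Cox7a2 in GCN2 KO Cold vs WT Cold from -0.0343 to 0.0226, Cox7a2l/Cox7a2 from -0.0326 to 0.057 and Atp5g3/Atp5g2 from -0.0556 to 0.0247, both in WT Cold vs WT RT. The causes were not tested. Depth was lowest for the 6 members under 1000 reads in some library, and its effect on the calls was not tested. No paired analysis was possible because the columns carry no replicate numbers and are tied to groups only.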
